A study of Homo sapiens with 20 samples.

Results

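Genes for chaperones and folding enzymes of the endoplasmic reticulum, and for factors induced when folding there fails, were followed in initiation complexes isolated through 4 translation initiation factors. The list held 10 Ensembl IDs, chosen by name with earlier results of these data known. Of these, 9 had a row in all 4 count tables, out of 19029 genes per table. They are HSPA5 (ENSG00000044574), HSP90B1 (ENSG00000166598), SDF2L1 (ENSG00000128228), DNAJB9 (ENSG00000128590), CALR (ENSG00000179218), CANX (ENSG00000127022), PDIA3 (ENSG00000167004), PDIA4 (ENSG00000155660) and HERPUD1 (ENSG00000051108). XBP1, the remaining ID, was not analysed here. The gene names are those given with the list, since the files hold IDs only.

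The cells were HEK 293T, a human embryonic kidney line that carries the SV40 large T antigen, labelled wild type. They received the compound i14G1-12 at 5 µM for 1 h, or DMSO, the solvent, for 1 h. The series title names an inhibitor of eIF1 and eIF4G1. RNA was read by selective translation complex profiling: after formaldehyde crosslinking, RNase digestion and ultracentrifugation, complexes were immunoprecipitated through the HA tag of eIF1, through eIF4G1, through the HA tag of eIF2a, or through eIF3, and the protected mRNA fragments were sequenced. The sources used here do not say how the tagged factors were expressed. The 20 libraries form 8 groups: i14G1-12 and DMSO for eIF1 and for eIF4G1, with 3 libraries each, and i14G1-12 and DMSO for eIF2a and for eIF3, with 2 libraries each. Each immunoprecipitation had its own DMSO libraries, so the 4 comparisons share none. No input was used here. Values are therefore shares of the immunoprecipitated RNA, and less binding of a factor cannot be told apart from less of the mRNA. Nothing in the labels ties replicates to separate cultures, so the spread behind the p-values may be technical. Markers of the cell line were not checked, because only the 9 genes could be named.

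Proteins for secretion and for membranes fold in the endoplasmic reticulum, where HSPA5 (BiP) binds unfolded chains and also holds the stress sensors inactive. When unfolded chains accumulate, PERK phosphorylates eIF2 alpha, which lowers initiation on most mRNAs, IRE1 splices XBP1 mRNA, and the cleaved form of ATF6 enters the nucleus. ATF6, with NF-Y, binds the endoplasmic reticulum stress response element (ERSE) in promoters of chaperone genes, and these mRNAs are translated on ribosomes docked at the membrane.

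Promoter sites are shown because ERSE is the textbook element of this gene group. Matches in these genes are therefore no independent result, although the motif was not used to choose the genes. RefSeq promoters of GRCh38.p14, from 250 bases before to 50 bases after a start, were available for 8 of the 9 genes, 12 promoters in all, and PDIA3 was not in the table. They were searched on both strands for ERSE, which is CCAAT, 9 bases of any kind and CCACG, and for ERSE-II, which is ATTGG, 1 base of any kind and CCACG. In the lines below capitals mark the fixed letters of the motif, and each line reads 5′ to 3′ on the strand of the gene.
HSPA5, ERSE: ttcaCCAATcggcggcctCCACGacgg
HSP90B1, ERSE, distal: ctgaCCAATcggaaggagCCACGcttc
HSP90B1, ERSE, proximal, in reverse: ggtgCGTGGtgcggcgcgATTGGtggg
CALR, ERSE, in reverse: cacgCGTGGtcgaccatcATTGGtcgg
CANX, ERSE: ccggCCAATcttcacactCCACGaaga
SDF2L1, ERSE-II, in reverse: gaagCGTGGaCCAATcaaa
HERPUD1, ERSE-II: gccgATTGGgCCACGttgg

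The HSPA5 site lies at chr9:125241391-125241409 and begins 66 bases before the start of the gene, which runs on the minus strand. The HSP90B1 sites lie at chr12:103930216-103930234 and chr12:103930321-103930339, beginning 194 and 89 bases before the start. The CALR site is at chr19:12938384-12938402, 225 bases before the start, and the CANX site at chr5:179698778-179698796, 151 bases before the first listed start. Of the 4 CANX promoters, number 2 had no match. The same site begins 9 bases before the start of number 3, and runs across it, and 189 bases before that of number 4. It lies within the annotated span of CANX, chr5:179678656-179731641. The ERSE-II of SDF2L1 is at chr22:21642114-21642124, 188 bases before the start, and that of HERPUD1 at chr16:56932025-56932035, 117 bases before it. All of these genes but HSPA5 run on the plus strand. In total 4 genes held an ERSE, 2 held an ERSE-II and 6 held either, while DNAJB9 and PDIA4 had no match in their windows. Of 35116 promoters in the table, 27 (0.0769%) held an ERSE and 19 (0.0541%) an ERSE-II. These figures count promoters, not genes, and include the promoters of the members. A match is a string of letters and was not tested for binding.

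Total counts ran from 10033 to 1161512 per library. The second eIF2a DMSO library had 10033 counts, so that a count of 0 there allows up to 299 CPM (counts scaled to the library total), and the second eIF3 DMSO library had 59179, with a limit of 50.7 CPM. Such limits are 3 counts over the library total, and cover counting error only. The 9 genes together took 0.188% to 0.313% of a library's counts. Their mean share was 0.198% ± 0.00629 after i14G1-12 and 0.211% ± 0.0206 in DMSO for eIF1, and 0.281% ± 0.0324 after i14G1-12 and 0.266% ± 0.0487 in DMSO for eIF4G1 (SD, n = 3 each). For eIF2a it was 0.279% ± 0.0229 after i14G1-12 and 0.254% ± 0.00673 in DMSO, and for eIF3 0.244% ± 0.0134 after i14G1-12 and 0.255% ± 0.0117 in DMSO (SD, n = 2 each). The difference between treatments was smaller than the larger SD of the pair for eIF1, eIF4G1 and eIF3, and slightly larger for eIF2a, where 1 of the DMSO values rests on 25 counts.

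Levels of different genes were compared per length, as CPM per kilobase of the counted sequence, scaled over all 20 libraries. The counts do not show where on that sequence the fragments lay, and the order depends on dividing by its length. In the eIF1 DMSO group, mean CPM before this division was 673 for HSPA5, 596 for CANX and 406 for CALR. CALR, the soluble lectin chaperone calreticulin, was first of the 9 in all 4 DMSO groups, at 213 ± 17.5 CPM per kb for eIF1, 206 ± 42.2 for eIF4G1 (SD, n = 3 each), 202 ± 88.9 for eIF2a and 167 ± 29.3 for eIF3 (SD, n = 2 each). HSPA5 came second in the eIF1 and eIF4G1 DMSO groups, at 172 ± 29.2 and 133 ± 19.0 CPM per kb, and CANX, the membrane-bound lectin chaperone calnexin, next at 121 ± 7.00 and 123 ± 15.4 (SD, n = 3 each). In the eIF2a and eIF3 DMSO groups the order of these genes was turned, with CANX at 100.4 ± 50.6 and 129 ± 13.9 and HSPA5 at 97.9 ± 4.81 and 111 ± 51.1 CPM per kb (SD, n = 2 each), gaps within the SDs.

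Among all genes with counts, CALR, HSPA5 and CANX stood between the 94.5th and 97.1st percentile of level per kb in every DMSO group. HSP90B1, the HSP90 paralogue GRP94, and SDF2L1, a small partner of HSPA5, followed, at 94.5 ± 7.18 and 91.5 ± 23.1 CPM per kb in the eIF1 DMSO group, and these neighbours were within their spread. PDIA3 and PDIA4, protein disulfide isomerases, were at 68.0 ± 12.6 and 62.5 ± 15.1, also within their spread of each other. HERPUD1, a membrane protein of the degradation machinery, was at 22.8 ± 4.58 CPM per kb and DNAJB9, the HSPA5 cochaperone ERdj4, at 7.56 ± 2.66 (SD, n = 3). DNAJB9 was lowest in the eIF1, eIF4G1 and eIF2a DMSO groups, and in the eIF3 DMSO group HERPUD1 was lower, at 16.1 ± 8.91 against 18.4 ± 14.8 CPM per kb for DNAJB9 (SD, n = 2). CALR was first in 15 of the 20 libraries, HSPA5 in 4 and CANX in 1. In the eIF1 libraries after i14G1-12, HSPA5 had the highest mean level, 290.5 ± 148 CPM per kb, with CALR at 221 ± 37.9 (SD, n = 3), a gap within the spread of HSPA5. HSPA5 was also first in the eIF3 libraries after i14G1-12, at 162 ± 103 CPM per kb. CANX was there at 140 ± 54.0 and CALR at 121 ± 44.8 (SD, n = 2 each), gaps again within the spread of HSPA5.

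**Figure D1:**
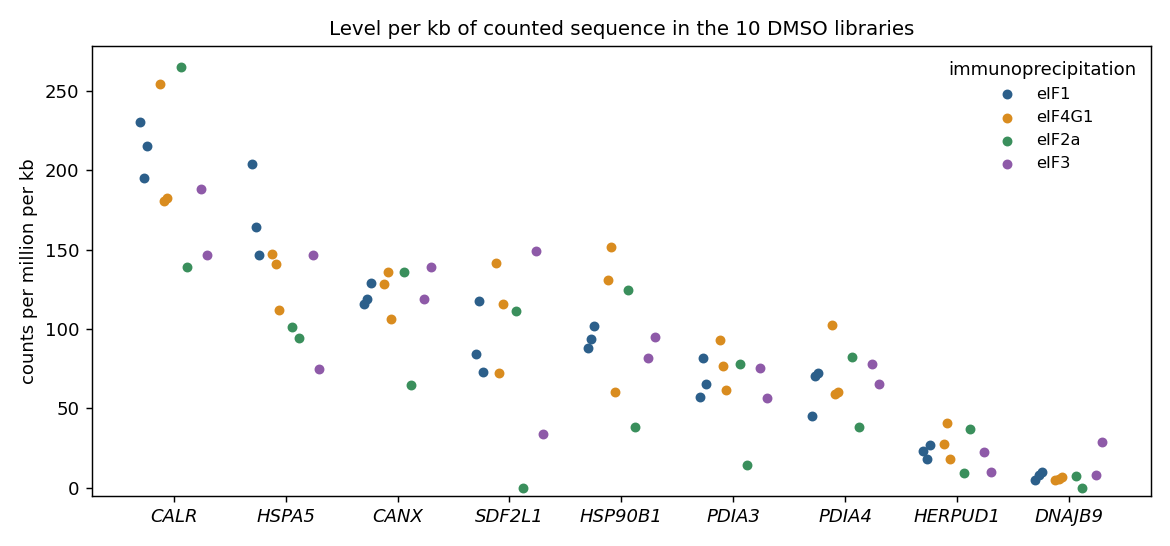
Level of each of the 9 genes in CPM per kilobase of counted sequence (linear axis) in the 10 DMSO libraries, with 1 colour per immunoprecipitation; points are libraries. CALR has the highest mean in all 4 immunoprecipitations, and DNAJB9 and HERPUD1 lie lowest.

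The next question was which of these mRNAs changed in each kind of complex after i14G1-12. None of the 9 passed the test in any immunoprecipitation: edgeR called 0 of 9 for eIF1, 0 of 8 for eIF4G1, 0 of 8 for eIF2a and 0 of 9 for eIF3 at an adjusted p under 0.05. The share called among all genes tested was 0.456% for eIF1, 0.347% for eIF4G1, 0% for eIF2a and 0.0159% for eIF3, so the members' count of 0 is near the background. DNAJB9 had too few counts to be tested in eIF4G1 and eIF2a. At an unadjusted p under 0.05 there were 3 members in eIF1 (background 12.4%), 1 in eIF4G1 (8.65%), 0 in eIF2a (1.84%) and 0 in eIF3 (1.75%). HSPA5 had the highest fitted effect of the 9 in eIF1, eIF4G1 and eIF3, and in each of these most of its excess lay in 1 treated library. DESeq2 also called 0 of the members to which it gave an adjusted p. Among the members that edgeR tested, DESeq2 gave none to SDF2L1, DNAJB9 and HERPUD1 in eIF1, and none to SDF2L1 and HERPUD1 in eIF4G1. CPM values from here on are relative to the TMM-scaled counts of the genes tested in an immunoprecipitation, and compare libraries of 1 gene.

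HSPA5 lies at chr9:125234853-125241343 in GRCh38.p14. In eIF1 complexes it had 1402, 701.5 and 613 CPM after i14G1-12 (602, 435 and 310 counts), against 633, 538.5 and 472 CPM in DMSO (690, 552 and 401 counts). One treated library, called a here, was far above the rest, library b was slightly above the DMSO range, and library c inside it, so the groups overlapped. The means were 906 ± 432 CPM after i14G1-12 and 548 ± 81.2 CPM in DMSO (SD, n = 3 each), a fitted log2 change of 0.72 (SE 0.26, 95% interval 0.19 to 1.25, edgeR adjusted p = 0.206). The adjusted p over alternatives ran from 0.0715, by DESeq2, to 0.733. Without treated library a the log2 fold change was 0.26 with an adjusted p of 0.733.

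In eIF4G1 complexes HSPA5 had 1830.3, 695 and 597 CPM after i14G1-12 (483, 247 and 618 counts), against 611, 599.5 and 462 CPM in DMSO (599, 213 and 110 counts). Treated library 1 was far above the rest, library 2 slightly above the DMSO range and library 3 inside it, so the groups overlapped. The means were 1041 ± 686 CPM after i14G1-12 and 557 ± 82.9 CPM in DMSO (SD, n = 3 each), a fitted log2 change of 0.89 (SE 0.35, 95% interval 0.16 to 1.61, edgeR adjusted p = 0.454). Without that library it was 0.20 with an adjusted p of 0.995, and DESeq2 on all libraries gave an adjusted p of 0.0931.

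In eIF2a complexes HSPA5 had 681 and 563 CPM after i14G1-12, against 511 and 607 CPM in DMSO, the last from 7 counts. The groups overlapped, with a fitted log2 change of 0.23 (SE 0.38, 95% interval -0.50 to 0.97, edgeR adjusted p = 0.99987). For eIF3 it had 1099.6 and 413 CPM after i14G1-12, against 691 and 368 CPM in DMSO. Library 1 after i14G1-12 was above both DMSO libraries and library 2 between them, and the log2 fold change was 0.48 (SE 0.66, 95% interval -0.91 to 1.88, edgeR adjusted p = 0.99981). Without treated library 1, which leaves treated library 2 against both DMSO libraries, it was -0.38, below 0. In both eIF3 groups library 2 held less HSPA5 than library 1. With the replicate number as a block, the log2 fold change was 0.50 (SE 0.28, edgeR adjusted p = 0.484), but the labels do not state pairing.

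The libraries in which HSPA5 was high were set against the other treated libraries of their immunoprecipitation, as a description chosen after the values were seen. On the log2 scale HSPA5 was higher by 1.09 in eIF1 library a, by 1.5 in eIF4G1 library 1 and by 1.4 in eIF3 library 1, at the 96.3rd, 97.3rd and 93.8th percentile of the genes tested. DNAJB9, on 10 counts, was higher by 2.06 in eIF1 library a, at the 99.8th percentile, and differed by -0.80 in eIF3 library 1. In the same order of libraries, CALR differed by 0.33, 0.66 and 0.77, CANX by -0.36, -0.69 and -0.78, PDIA4 by -0.69, 0.39 and 0.25, and HERPUD1 by -0.62, -0.50 and 0.29. For HSP90B1, SDF2L1 and PDIA3 the values lay between -0.61 and 0.38. The share of the 10 most abundant genes was 25.4% in eIF1 library a, against 13.3% and 15.5% in the other treated eIF1 libraries and 20.1%, 11.2% and 12.8% in DMSO. It was 7.53% in eIF4G1 library 1, against 7.15% and 7.09% in the other treated eIF4G1 libraries and 4.56% to 5.48% in DMSO. It was 7.38% in eIF3 library 1, against 5.93% in the other treated library and 4.99% and 4.79% in DMSO. For eIF4G1 and eIF3 the share was thus higher in every treated library than in DMSO, not in the HSPA5-high library alone. The part of this in the HSPA5 values was not tested.

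**Figure D2:**
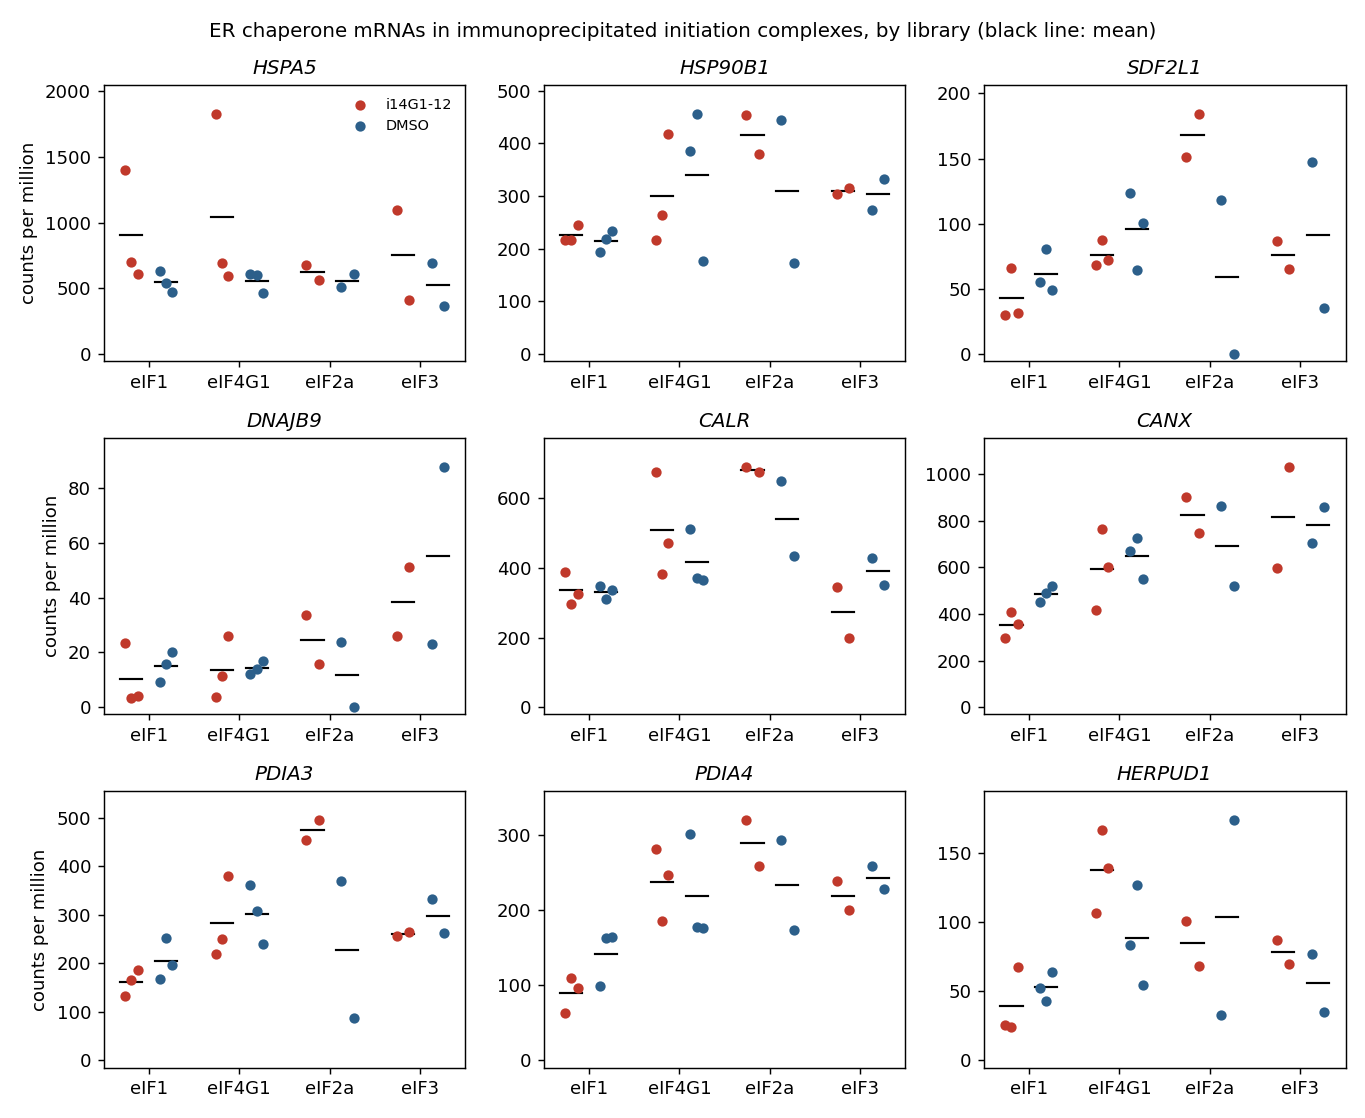
CPM of each of the 9 genes in every library, one panel per gene, by immunoprecipitation with i14G1-12 left of DMSO; points are libraries and black lines their mean. In the HSPA5 panel single treated libraries of eIF1 (1402 CPM), eIF4G1 (1830.3 CPM) and eIF3 (1099.6 CPM) stand above all others of their immunoprecipitation. Groups do not overlap for CANX in eIF1, for SDF2L1, CALR and PDIA3 in eIF2a, and for CALR in eIF3. All other pairs of groups overlap.

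HSP90B1 (chr12:103930410-103947926) folds a restricted set of secreted and membrane proteins. In eIF1 complexes it had 217, 216 and 245 CPM after i14G1-12, against 194, 218 and 233 CPM in DMSO. These 6 values lay close together and overlapped, with a fitted log2 change of 0.07 (SE 0.21, 95% interval -0.37 to 0.52, edgeR adjusted p = 0.932). For eIF4G1 it had 216, 264 and 417 CPM after i14G1-12, against 384, 456 and 176 CPM in DMSO. The spread within each group was larger than the gap between them, with a fitted log2 change of -0.18 (SE 0.34). For eIF2a the values were 454 and 379 CPM after i14G1-12 against 445 and 173 CPM in DMSO, the last from 2 counts. For eIF3 they were 303 and 315 CPM after i14G1-12 against 274 and 333 CPM in DMSO. Fitted changes were 0.0026 in eIF2a and 0.04 in eIF3 on the log2 scale.

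SDF2L1 (chr22:21642302-21644299) works in complexes with DNAJ cochaperones of HSPA5. In eIF1 complexes it had 30.3, 66.1 and 31.6 CPM after i14G1-12, against 55.1, 81.0 and 49.4 CPM in DMSO, with a fitted log2 change of -0.50 (SE 0.35, 95% interval -1.22 to 0.21, edgeR adjusted p = 0.598). In the eIF4G1 libraries SDF2L1 had 68.2, 87.2 and 72.4 CPM after i14G1-12, against 123, 64.7 and 101 CPM in DMSO. Both pairs of groups overlapped, and the eIF4G1 estimate was -0.36 (SE 0.37). For eIF2a it had 151 and 184 CPM after i14G1-12, against 118 CPM in one DMSO library and 0 counts in the shallow one, which allows up to 260.1 CPM on this scale (3 counts). The values do not overlap, but that limit lies above both treated libraries, and the fitted log2 change was 0.64 (SE 0.50, edgeR adjusted p = 0.99987). In the eIF3 libraries it had 86.6 and 64.9 CPM after i14G1-12, inside the DMSO values of 147 and 35.1 CPM, the last from 2 counts.

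DNAJB9 (chr7:108569874-108574850) recruits HSPA5 to the sensor IRE1 and to misfolded chains. It was the gene with the fewest counts: in eIF1 complexes 10, 2 and 2 counts (23.3, 3.225 and 3.95 CPM) after i14G1-12, against 10, 16 and 17 counts (9.18, 15.6 and 19.99 CPM) in DMSO. Treated library a was the highest of the 6 and the other treated libraries were the lowest, so the groups overlapped. The log2 fold change was -0.64 (SE 0.68, 95% interval -2.04 to 0.77, edgeR adjusted p = 0.755), and -2.01 without library a, also short of the threshold. In the untested immunoprecipitations DNAJB9 had 3.79, 11.2 and 26.1 CPM after i14G1-12 against 12.2, 14.1 and 16.8 CPM in DMSO for eIF4G1, and 33.6 and 15.8 CPM after i14G1-12 against 23.7 CPM and 0 counts in DMSO for eIF2a. In eIF3 complexes it had 26.0 and 51.0 CPM after i14G1-12, inside the DMSO values of 23.0 and 87.6 CPM. In each of these the groups overlapped, and the counts are too few to place DNAJB9 on either side of 0.

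The lectin chaperones CALR and CANX hold glycoproteins until they are folded. CALR (chr19:12938609-12944489) had 389, 295 and 324 CPM after i14G1-12 in eIF1 complexes, against 347, 310.2 and 335 CPM in DMSO. The groups overlapped fully, with a fitted log2 change of 0.02 (SE 0.21, 95% interval -0.41 to 0.45, edgeR adjusted p = 0.984). In the eIF4G1 libraries it had 674, 382 and 472 CPM after i14G1-12, against 512, 372 and 365 CPM in DMSO, a fitted log2 change of 0.28 (SE 0.30). In eIF2a complexes CALR had 689 and 674 CPM after i14G1-12, against 648 and 433 CPM in DMSO, the last from 5 counts. In eIF3 complexes it had 346 and 199 CPM after i14G1-12, against 429 and 351 CPM in DMSO, the last from 20 counts. Every treated library was thus above every DMSO library in eIF2a and below them in eIF3. Among all genes tested, 20.4% were higher without overlap in eIF2a and 13.5% lower without overlap in eIF3. The log2 fold changes were 0.16 (SE 0.37) and -0.53 (SE 0.61), and neither passed (edgeR adjusted p = 0.99987 and 0.99981).

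CANX (chr5:179678656-179731641) had 298, 408 and 358 CPM after i14G1-12 in eIF1 complexes, against 451.5, 489 and 521 CPM in DMSO. The 3 treated libraries were all below the 3 DMSO libraries, and CANX was the only 1 of the 9 genes without overlap in eIF1, where 9.58% of all genes were lower without overlap. The means were 355 ± 55.0 CPM after i14G1-12 and 487 ± 34.7 CPM in DMSO (SD, n = 3 each), a fitted log2 change of -0.45 (SE 0.21, 95% interval -0.88 to -0.023, edgeR adjusted p = 0.369). The adjusted p over alternatives ran from 0.187, by DESeq2, to 0.883. In the eIF4G1 libraries CANX had 417, 762 and 599.8 CPM after i14G1-12, against 668, 723 and 550.1 CPM in DMSO. In the eIF2a libraries it had 899 and 748 CPM after i14G1-12, against 861 and 520.1 CPM in DMSO, the last from 6 counts. In eIF3 complexes it had 597 and 1029.7 CPM after i14G1-12, against 702 and 859 CPM in DMSO. These groups overlapped, with log2 fold changes of -0.13, 0.057 and 0.066.

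The disulfide isomerases came next. PDIA3 (chr15:43746438-43773278), which works with the lectin chaperones, had 133, 166 and 186 CPM after i14G1-12 in eIF1 complexes, against 167, 252 and 196 CPM in DMSO, overlapping, with a fitted log2 change of -0.34 (SE 0.23, edgeR adjusted p = 0.598). In eIF4G1 complexes it had 219.8, 250.3 and 379.6 CPM after i14G1-12, against 361, 307 and 239 CPM in DMSO. In eIF2a complexes it had 454 and 495 CPM after i14G1-12, against 369 and 86.7 CPM in DMSO, the last from 1 count in the shallow library. The groups did not overlap in eIF2a, and the log2 fold change was 0.49 (SE 0.37, 95% interval -0.22 to 1.21, edgeR adjusted p = 0.99987). In eIF3 complexes it had 255 and 264 CPM after i14G1-12, against 333 and 263 CPM in DMSO.

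PDIA4 (chr7:149003051-149028505) had 62.9, 109.7 and 96.9 CPM after i14G1-12 in eIF1 complexes, against 99.1, 163 and 163 CPM in DMSO. Library b after i14G1-12 was above the lowest DMSO library, and the other treated libraries were below all of DMSO. The means were 89.8 ± 24.2 CPM after i14G1-12 and 142 ± 37.0 CPM in DMSO (SD, n = 3 each), a fitted log2 change of -0.64 (SE 0.27, 95% interval -1.20 to -0.083, edgeR adjusted p = 0.311). The adjusted p over alternatives ran from 0.155 to 0.797. In eIF4G1 complexes it had 280.4, 186 and 246 CPM after i14G1-12, against 301, 177 and 176 CPM in DMSO. In eIF2a complexes it had 319 and 258 CPM after i14G1-12 against 293 and 173 CPM in DMSO, the last from 2 counts. In eIF3 complexes it had 238 and 199 CPM after i14G1-12 against 258 and 228 CPM in DMSO. All 3 pairs of groups overlapped.

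HERPUD1 (chr16:56932142-56944864) is a target of the stress response that supports removal of misfolded proteins. In eIF1 complexes it had 25.6, 24.2 and 67.2 CPM after i14G1-12, against 52.3, 42.9 and 63.5 CPM in DMSO. In eIF4G1 complexes it had 106, 166 and 139 CPM after i14G1-12, against 83.6, 127 and 54.6 CPM in DMSO. The treated libraries thus held both ends of the range in eIF1, and in eIF4G1 2 of 3 were above all of DMSO. The log2 fold changes were -0.44 (SE 0.38, edgeR adjusted p = 0.681) in eIF1 and 0.62 (SE 0.36, 95% interval -0.12 to 1.37, edgeR adjusted p = 0.691) in eIF4G1. In eIF2a complexes it had 101 and 68.5 CPM after i14G1-12, between the DMSO values of 33.1 and 173 CPM, which came from 7 and 2 counts. In eIF3 complexes it had 86.6 and 69.6 CPM after i14G1-12, against 76.5 and 35.1 CPM in DMSO, the last from 2 counts. The fitted log2 change in eIF2a was 0.95 (SE 0.70), while the mean was 84.7 CPM after i14G1-12 and 103 CPM in DMSO. The fit weights libraries by depth and the mean does not. Without the deeper eIF2a DMSO library it was -1.03.

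**Figure D3:**
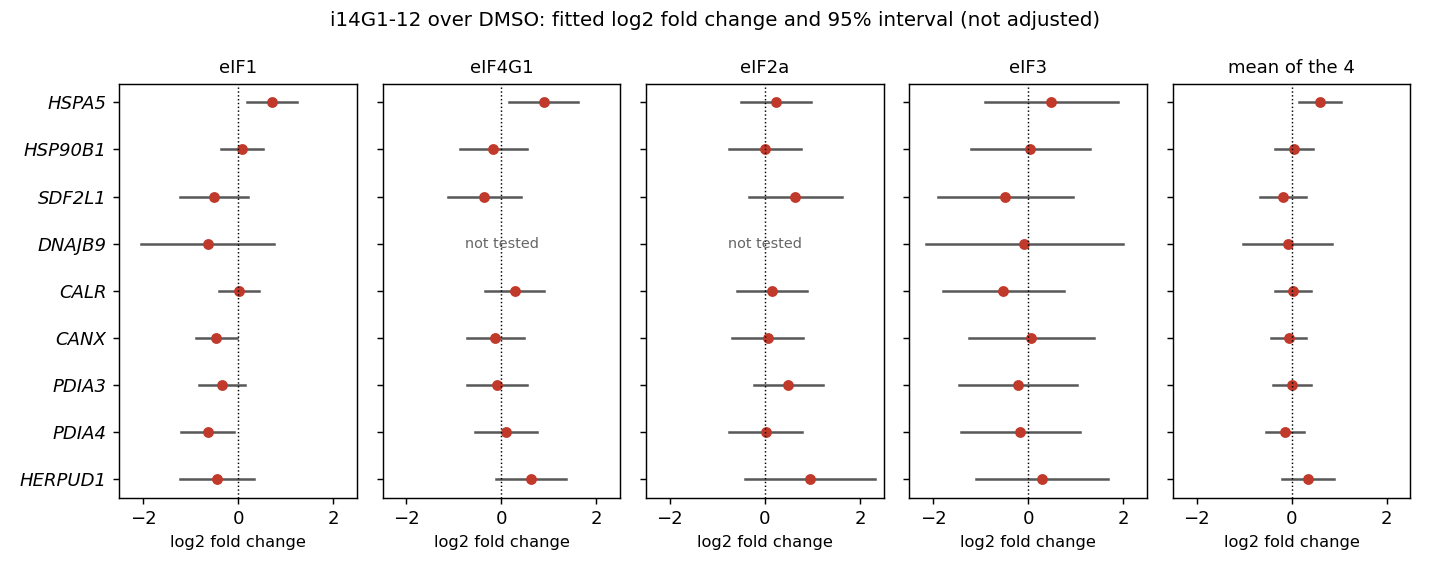
Log2 fold change (i14G1-12 minus DMSO) of each of the 9 genes in the 4 immunoprecipitations and as the mean of the 4 effects (last panel); points are edgeR estimates and bars are 95% intervals. HSPA5 in eIF1 (0.72) and eIF4G1 (0.89) and CANX and PDIA4 in eIF1 (-0.45 and -0.64) have unadjusted intervals that leave out 0, as has HSPA5 in the mean (0.60), and none passed after adjustment over all genes.

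As a group, 3 of the 9 had a fitted change above 0 and 6 below 0 in eIF1, where 49.4% of all genes tested were below 0. The median over the 9 was -0.44, beside 0.0048 over all genes tested, and without i14G1-12 library b it was -0.16, without i14G1-12 library a -0.24 and without DMSO library b -0.26. In eIF4G1 4 were above and 4 below 0 (50.4% of all genes below), with a median of 0.0031 beside -0.0053, which ran from -0.13 to 0.24 when 1 library was left out. In eIF2a 8 were above and 0 below (43.4% below), with a median of 0.19 beside 0.058. The eIF2a median was 0.72 without the deeper DMSO library and 0.15 without the shallow one. At a minimum count of 30 it was 0.027 over the members left. Without the shallow library HSP90B1, CANX and PDIA4 were below 0 (-0.126, -0.090 and -0.061) and the other members tested above it. In eIF3 4 were above and 5 below (48.5% below), with a median of -0.081 beside 0.018. Groups without overlap were found for 1 gene in eIF1 (CANX, lower), 0 in eIF4G1, 3 in eIF2a (SDF2L1, CALR and PDIA3, higher) and 1 in eIF3 (CALR, lower). Among all genes tested 18.3% had no overlap for eIF1 (8.73% higher, 9.58% lower) and 14.3% for eIF4G1 (7.4% higher, 6.87% lower). For eIF2a the share was 29.8% (20.4% higher, 9.37% lower) and for eIF3 26% (12.5% higher, 13.5% lower). Nothing particular to the list is read from its counts of 0 to 3 genes beside these shares.

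A description that does not depend on scaling is the make-up of the 9 genes' own counts, chosen after the values were seen and not tested. In eIF1 complexes HSPA5 took 54.3%, 35.3% and 31.8% of the counts of the 9 genes after i14G1-12, against 31.5%, 25.5% and 23.0% in DMSO. Every treated library was above every DMSO library, with the lowest treated value just over the highest DMSO value. The CPM of HSPA5 itself overlapped in eIF1. The share also depends on the other members, and 6 of the 9 had a fitted change below 0 there. By CPM, 8.73% of all genes tested in eIF1 were higher without overlap, and how often such shares separate was not computed. In eIF4G1 complexes the shares were 48.0%, 24.8% and 20.2% after i14G1-12, against 19.99%, 21.1% and 21.6% in DMSO. In eIF2a they were 18% and 16.6% after i14G1-12 against 15.5% and 28% in DMSO, and in eIF3 36.2% and 15.8% after i14G1-12 against 23.5% and 14.4% in DMSO. Groups overlapped in eIF4G1, eIF2a and eIF3.

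**Figure D4:**
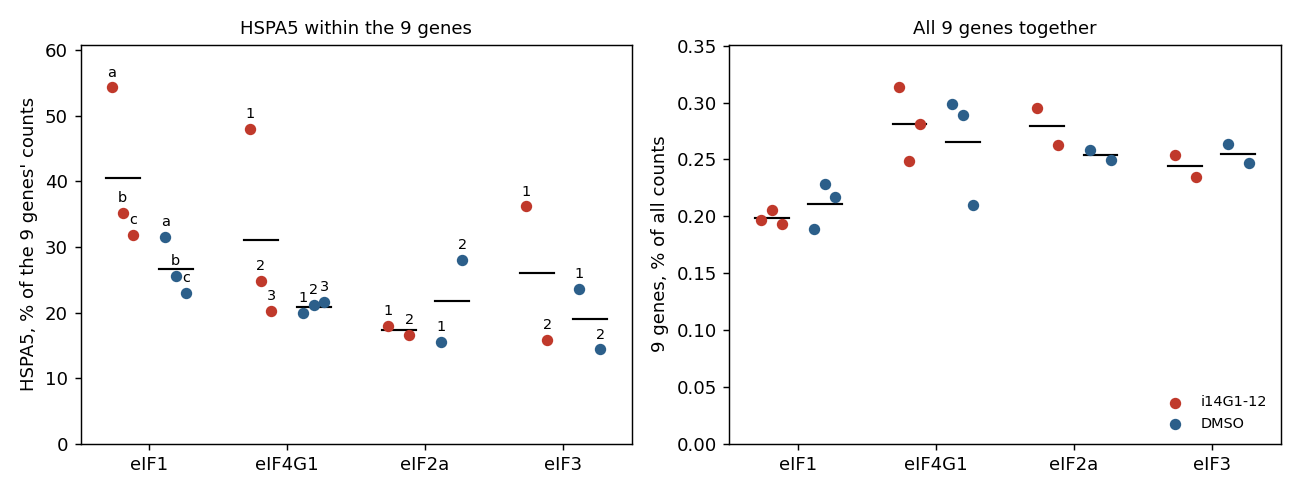
HSPA5 as a percentage of the counts of the 9 genes (left panel) and the 9 genes as a percentage of all counts (right panel), by immunoprecipitation with i14G1-12 left of DMSO; points are libraries, named by letter or number on the left, and black lines their mean. On the left the treated eIF1 libraries (31.8% to 54.3%) lie above DMSO (23.0% to 31.5%) and the other groups overlap, and on the right all libraries lie between 0.188% and 0.313%.

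A fit to all 20 libraries asked for a change common to the 4 immunoprecipitations, as the mean of the 4 treatment effects. Of 9426 genes 0.541% were called and 0 of the 9 were. HSPA5 had the highest value of the 9, 0.60 on the log2 scale (SE 0.22, 95% interval 0.16 to 1.04, edgeR adjusted p = 0.251), and it alone had an unadjusted p under 0.05, as did 10.2% of all genes. Over 26 alternatives the HSPA5 mean stayed above 0, between 0.29 and 0.77, with adjusted p-values from 0.0678 to 0.716. The lowest value was that without eIF1 library a and eIF4G1 library 1. HERPUD1 followed at 0.34 (SE 0.27, 95% interval -0.21 to 0.88), and the other 7 lay between -0.18 and 0.044.

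The same fit tested whether the treatment effect differed between immunoprecipitations. For eIF1 minus eIF4G1, the factors that the title names together, 0 of the 9 were called and 0.0318% of all genes were, and at an unadjusted p under 0.05 it was 0 of the 9 and 3.13% of all genes. The values farthest from 0 were those of HERPUD1, -1.04 (SE 0.56, 95% interval -2.16 to 0.075), DNAJB9, -0.74 (SE 1.05), and PDIA4, -0.71 (SE 0.47, 95% interval -1.65 to 0.24), each with an edgeR adjusted p of 0.99985. HSPA5 differed by -0.13 (SE 0.52, 95% interval -1.17 to 0.92), a wide interval that does not show equal effects. Over all 4 immunoprecipitations together, 0 of the 9 differed, beside 0.0212% of all genes, and 0 had an unadjusted p under 0.05, beside 1.8%.

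Without the compound, the DMSO groups were compared as 1 immunoprecipitation minus the mean of the other 3, where factor, antibody, tag and batch cannot be told apart. None of the 9 passed, while 4.08% of all genes did for eIF1, 0.117% for eIF4G1, 0.053% for eIF2a and 0.0955% for eIF3. At an unadjusted p under 0.05 there were likewise 0 of the 9, beside 14.6%, 5.18%, 3.7% and 5.79% of all genes. The value farthest from 0 for each immunoprecipitation was that of HSPA5 in eIF1, 0.57 (SE 0.32, edgeR adjusted p = 0.425), HERPUD1 in eIF4G1, 0.75 (SE 0.38, edgeR adjusted p = 0.94), HERPUD1 in eIF2a, -0.97 (SE 0.64), and DNAJB9 in eIF3, 1.09 (SE 0.81). With total-count scaling, which moved the median over all genes to -0.33, the HSPA5 value in eIF1 was 0.13.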

How the data were processed

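Each immunoprecipitation has 1 deposited table of unnormalized counts, in featureCounts layout per the file headers, on 1 sequence per gene. The submitters' processing notes list HISAT2, Bowtie, featureCounts, Trimmomatic and cutadapt, with build hg38. The sources used here do not state what was done with multi-mapping reads, and HSPA5 and PDIA3 have annotated pseudogenes (HSPA5P1, PDIA3P1, PDIA3P2), so their counts are uncertain to that extent. The genes named are all members of the list. Members and lists were chosen with earlier results of these data known. The wider pathway list was not analysed here, because 0 IDs could be named from the reference table.

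Treatment was tested within each immunoprecipitation with edgeR 4.0.16 in R 4.3.3 (quasi-likelihood test) after filterByExpr (minimum count 10) and TMM scaling, with Benjamini-Hochberg adjustment over all genes tested and a threshold of 0.05. SEs were derived from the estimate and its F statistic. Contrasts between immunoprecipitations came from 1 fit to all 20 libraries. Alternatives were DESeq2 1.42.0 and its size factors, total counts, no filter, a minimum of 30, all libraries in 1 fit, the replicate block and leaving out each library. The fits were also run on simulated data, with a common dispersion and no outlying libraries. The outcome is not given here, and no result rests on it. Column numbers of the eIF1 table do not match the labels' replicate numbers, so these libraries are called a, b and c. No replicate pair agreed within counting noise (chi-square per degree of freedom 1.34 to 10.2).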

Additional observations from a re-analysis of the deposited data

Results flagged for a closer look

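CALR was picked out because its treated libraries moved in opposite directions in different immunoprecipitations. In eIF2a every i14G1-12 library was above every DMSO library, with a log2 fold change of 0.16, and in eIF3 every i14G1-12 library was below every DMSO library, with a log2 fold change of -0.53. Of all genes tested, 20.4% were higher without overlap in eIF2a and 13.5% lower without overlap in eIF3. Without the shallow eIF2a DMSO library the eIF2a value of CALR (i14G1-12 minus DMSO, eIF2a) was 0.05. The difference itself, the eIF2a effect minus the eIF3 effect, was 0.76 (SE 0.61, 95% interval -0.45 to 1.98, edgeR adjusted p = 0.9998), so it did not pass. With 2 libraries per group, one of the DMSO libraries in each of these immunoprecipitations is shallow (10033 counts for eIF2a and 59179 for eIF3).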

How the results depend on the processing

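In all 217 alternatives to a count of called members, 0 members passed, in edgeR and DESeq2 alike. Some alternatives gave no adjusted p to members with few counts, and these members count as not passed. For single genes 1695 alternative values were computed, and 157 had another sign than the reported one, in each case with neither value past the threshold. The median log2 fold change of the members moved most when 1 library was left out, between -0.47 and -0.16 in eIF1, between -0.13 and 0.24 in eIF4G1, between 0.15 and 0.72 in eIF2a and between -0.17 and 0.03 in eIF3. Total-count scaling moved the median of all genes to -0.13 in eIF1 and -0.16 in eIF4G1. Over all genes, DESeq2 called 174 for eIF1, 91 for eIF4G1, 0 for eIF2a and 3 for eIF3, and edgeR without a filter called 129, 68, 0 and 2, against 38, 25, 0 and 1 in the reported fits. With the replicate number as a block, 0 members were called for eIF4G1, eIF2a and eIF3, with member medians of 0.01, 0.28 and -0.14. Same-numbered libraries did not deviate together in eIF4G1 (correlations of 0.0066, -0.10 and -0.15), which was not treated as paired. The correlation was -0.024 in eIF2a and 0.56 in eIF3. In each, 2 pairs are too few to settle whether libraries are paired, which the labels do not state, and neither was treated as paired. In eIF3 the block left the value of HSPA5 (i14G1-12 minus DMSO, eIF3) at 0.50 with an SE of 0.28 in place of 0.66 (edgeR adjusted p = 0.484). No paired analysis was possible for eIF1 because its columns carry no replicate number of the labels. Without eIF3 i14G1-12 library 2, eIF2a DMSO library 2 and eIF3 DMSO library 2, the HSPA5 (mean of the 4 effects) value was 0.64. This alternative was chosen after seeing the data. The DMSO libraries left out were shallow. The treated one had 239495 counts and held less HSPA5 than the other treated eIF3 library (413 against 1099.6 CPM). Depth limits DNAJB9, and all eIF2a and eIF3 results, where 1 DMSO library each is shallow.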
